A study of Mus musculus with 6 samples.

Results

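The clustered protocadherins are cell-surface cadherins that are encoded by 3 neighbouring gene arrays, alpha, beta and gamma. Members were found by gene symbol: 57 of the 51733 symbols in the count tables read Pcdha and a number or Pcdhac and a number, Pcdhb and a number, or Pcdhg with a, b or c and a number. They comprised 13 alpha, 22 beta and 22 gamma members, and 5 of them belonged to the C-type (Pcdhac1, Pcdhac2, Pcdhgc3, Pcdhgc4 and Pcdhgc5). The family itself was chosen by its values in the Ybx1-KO against control comparison of these same libraries, so the differences given for its members are a description and not independent evidence. All 57 members lie on chromosome 18 of GRCm38. The alpha members span positions 36930184 to 37187661, the beta members 37264938 to 37524479 and the gamma members 37661793 to 37841873.

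Sorted Sox2-positive neural progenitor cells (NPCs) from mouse neural tubes at E13.5 were compared between embryos lacking Ybx1, a DNA- and RNA-binding protein, and sibling controls. The 3 libraries labelled YBX1KO are called Ybx1-KO 1, 2 and 3. They came from embryos homozygous for the null allele Ybx1tm1Ley, so that Ybx1 is lost from every tissue and not from NPCs alone. The 3 libraries labelled wildtype are called control 1, 2 and 3. The strain label was C57BL/6 in both groups, and both carried the Sox2-eGFP reporter (Sox2tm1Hoch) that was used for the sort. Embryos of both sexes were used. The labels do not give the number of embryos behind a library or say that replicates came from separate embryos, so p-values measure only the spread between these libraries, which may be partly technical. Exencephaly, an open brain, is a known trait of Ybx1-null embryos, and the labels do not say which embryos had it.

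Each member has its own promoter and a large first exon that encodes the extracellular, transmembrane and proximal cytoplasmic part of the protein. In the alpha and gamma arrays this first exon is spliced to constant exons shared by the whole array, whereas a beta gene is a single exon. Individual neurons switch on a small, largely random choice of the alpha, beta and gamma-A or gamma-B promoters, with CTCF and cohesin bringing a distant enhancer to the chosen one, and the C-type promoters are regulated separately and more uniformly. The proteins pair with identical partners on other membranes and give a neuron an identity used in self-avoidance, tiling and survival.

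The libraries differed in depth and in background. Counts on genes numbered 20841990 to 23883542 in the controls and 8483075, 13321952 and 4743279 in Ybx1-KO 1, 2 and 3. Ybx1 itself had 4972, 11345 and 6020 counts in the controls and 1112, 533 and 68 in the Ybx1-KO libraries, and the groups did not overlap. With levels in CPM (counts scaled to library size) after TMM scaling, a correction for library composition, Ybx1 differed by a log2 fold change of -2.49 (SE 0.68, adjusted p = 0.302 by edgeR's quasi-likelihood test). On that scale it stood at 239, 531 and 306 CPM in the controls and 126, 55.4 and 9.66 in Ybx1-KO 1, 2 and 3. Ybx1-KO 3 stood apart: olfactory, vomeronasal and taste receptor genes, which serve sensory cells, held 4554 CPM there and 22.5 to 95.9 CPM in the other 5 libraries. Of its read pairs, 59.5% fell on no feature counted for a gene, against 30.6% to 46.7% elsewhere. Results that rest on Ybx1-KO 3 are given with and without it, or with the receptor-gene rate of each library subtracted from the members.

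The summed level of all 57 members was lower in each of the 3 Ybx1-KO libraries than in any control. It was 448, 327 and 302 TMM-scaled CPM in controls 1, 2 and 3, and 207, 298 and 221 in Ybx1-KO 1, 2 and 3. The Ybx1-KO mean was 0.674 times the control mean (242 ± 48.6 against 359 ± 78.4, SD, n = 3 each). With the receptor-gene rate subtracted, Ybx1-KO 3 stood at 117 CPM and the ratio was 0.580. Ybx1-KO 1 and 2 alone gave a ratio of 0.703 without subtraction. Ybx1-KO 2 reached 298 and control 3 stood at 302, so the gap between the groups was small beside the spread within them. In bulk libraries, fewer expressing cells and less RNA per cell cannot be told apart.

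**Figure D1:**
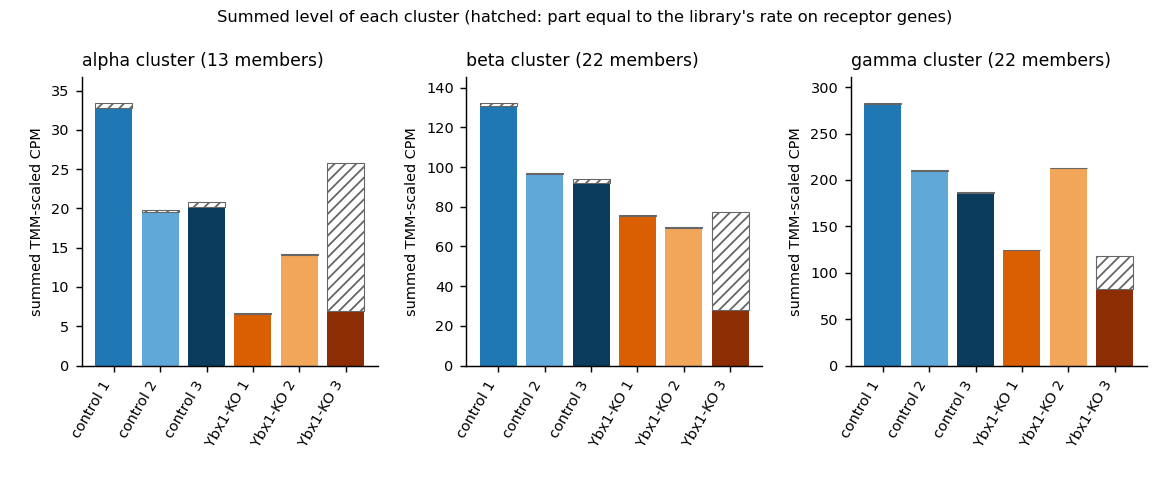
Summed TMM-scaled CPM of the alpha, beta and gamma clusters (vertical axes, each starting at 0) in the 6 libraries (horizontal axis). The hatched part of a bar is the amount equal to that library's rate per kilobase on receptor genes. The beta sums of the 3 Ybx1-KO libraries (69.9 to 77.4) lie below those of the 3 controls (93.7 to 132), and the hatched part is largest in Ybx1-KO 3.

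The clusters did not share one pattern. The beta sum was 132, 97.0 and 93.7 CPM in the controls and 75.9, 69.9 and 77.4 in the Ybx1-KO libraries, a ratio of means of 0.691 with no overlap. The alpha sum was 33.4, 19.8 and 20.8 CPM in the controls and 6.69, 14.2 and 25.7 in the Ybx1-KO libraries, where Ybx1-KO 3 lay above 2 controls. The gamma sum was 283, 210 and 187 CPM in the controls and 125, 213 and 118 in the Ybx1-KO libraries, with Ybx1-KO 2 among the controls. Beta and all members together were therefore separated by group, and alpha and gamma were not.

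Much of what Ybx1-KO 3 contributed was no higher than its background. At that library's receptor-gene rate of 3.80 counts per kilobase, the members' unshared exons would hold 133 of its 181 alpha counts (73.2%), 349 of its 545 beta counts (64.0%) and 254 of its 832 gamma counts (30.5%). The same share was at most 3.10% of any cluster's counts in the other 5 libraries. With that rate subtracted, the alpha sum of Ybx1-KO 3 was 6.89 CPM, the alpha groups no longer overlapped and the alpha ratio of means was 0.378 in place of 0.630. The alpha ratio from Ybx1-KO 1 and 2 alone was 0.424, the beta ratio 0.677 and the gamma ratio 0.746, and gamma still overlapped.

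**Figure D2:**
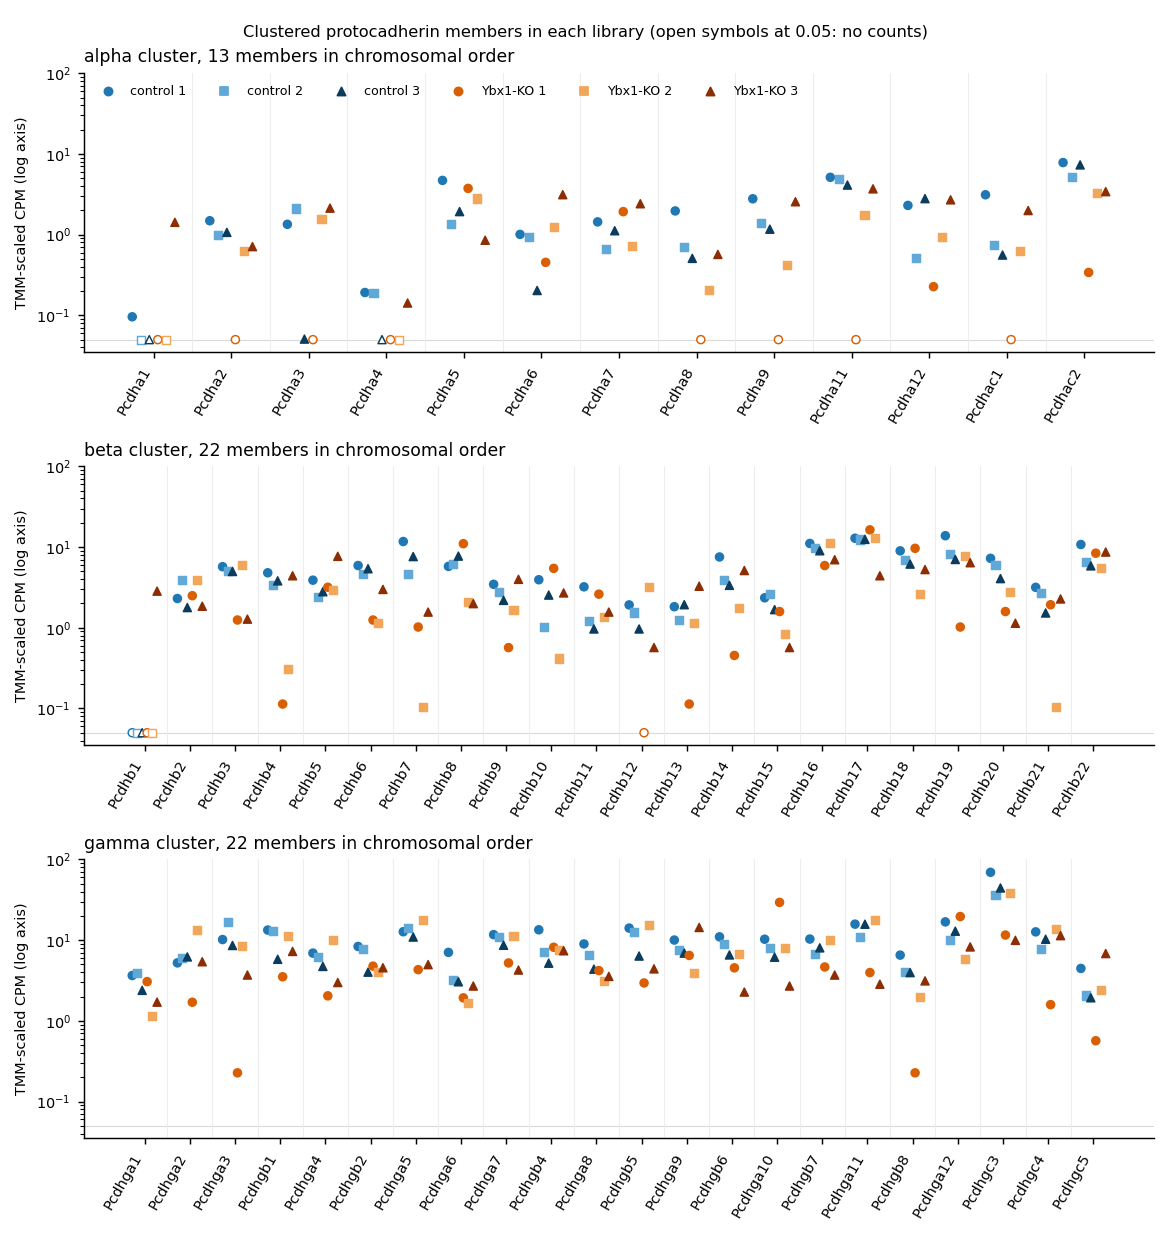
TMM-scaled CPM (logarithmic vertical axis) of each of the 57 members in chromosomal order (horizontal axis), 1 symbol per library; open symbols at the foot of a panel mark libraries with no counts. Control symbols of a gamma or beta member lie close together, Pcdhgc3 is the highest member in the controls and Ybx1-KO 2, and Ybx1-KO symbols scatter more widely around the controls.

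The alpha cluster was the least expressed. Its sum of 19.8 to 33.4 CPM in the controls compared with 93.7 to 132 for beta and 187 to 283 for gamma, which made it 6.04% to 7.45% of all members' counts there. Only Pcdhac2 passed the filter used for testing, a mean FPKM (counts scaled to exon length and library size) above 1 in either group. Pcdhac2 is the C-type isoform that serotonergic neurons use to space their axons. It had 7.82, 5.24 and 7.32 CPM in the controls and 0.340, 3.32 and 3.41 in the Ybx1-KO libraries. Every Ybx1-KO value lay below the controls, and the lowest rested on 3 counts in Ybx1-KO 1. The log2 fold change was -1.53 (SE 0.88, adjusted p = 0.460 by edgeR), and -1.89 without Ybx1-KO 3 (adjusted p = 0.394 by edgeR). Over the alternatives its adjusted p ran from 0.341 to 0.725.

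Pcdhac2 was also the leading alpha member of every control, with 23.4%, 26.5% and 35.1% of the cluster's counts. It held 5.08% in Ybx1-KO 1, 23.4% in Ybx1-KO 2 and 13.3% in Ybx1-KO 3. Pcdhac1, the other alpha C-type, had 3.12, 0.749 and 0.559 CPM in the controls against 0, 0.623 and 1.99 in the Ybx1-KO libraries, with groups that overlapped. The remaining 11 alpha members summed to 22.4, 13.8 and 13.0 CPM in the controls and 6.35, 10.3 and 20.3 in the Ybx1-KO libraries. Without Ybx1-KO 3 these sums did not overlap.

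In Ybx1-KO 1 the alpha counts came from very few members. Of the 13 members, 8 had no count there, against 0 to 2 in the other libraries. A count of 0 in this library allows up to 3 counts, or 0.354 CPM before scaling. Pcdha5 alone held 33 of its 59 alpha counts, 55.9% (95% Wilson interval 43.3% to 67.8%), and Pcdha7 held 28.8% (18.8% to 41.4%). In the controls Pcdha5 held 6.87% to 14.1% and Pcdha7 3.32% to 5.37%. These intervals cover counting error only, and no unique molecular identifiers were used. Pcdha11 was second by counts among the alpha members in every control, at 4.12 to 5.13 CPM. Per unshared kilobase it ranked 7, 3 and 4 in controls 1, 2 and 3. It had no count in Ybx1-KO 1 and 1.77 and 3.69 CPM in the other Ybx1-KO libraries. In the annotation used here the symbol Pcdha11 covers 2 genes.

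Among the beta members, Pcdhb7 stood furthest from its control level. It had 244, 99 and 150 counts in the controls and 9, 1 and 11 in the Ybx1-KO libraries. On the TMM-scaled CPM scale these were 11.7, 4.63 and 7.62 against 1.02, 0.104 and 1.56, so the groups were far from overlapping. The log2 fold change was -3.16 (SE 0.98, unadjusted p = 0.00511, adjusted p = 0.379 by edgeR). The 11 counts of Ybx1-KO 3 were below the 13.3 that its receptor-gene rate gives for the exon of Pcdhb7. Leaving out Ybx1-KO 1 took Pcdhb7 past the threshold, at a log2 fold change of -3.42 with adjusted p = 0.0143 by edgeR, and it was then the only member called among the 0.679% of all genes called lower. Over all alternatives its adjusted p ran from 0.0143 to 0.783. Pcdhb7 is a single-exon gene at positions 37341702 to 37345202.

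Pcdhb6 and Pcdhb20 were the other tested beta members without overlap. Pcdhb6 had 5.90, 4.63 and 5.38 CPM in the controls and 1.25, 1.14 and 2.98 in the Ybx1-KO libraries (log2 fold change -1.57, SE 0.92, adjusted p = 0.467 by edgeR). Pcdhb20 had 7.24, 5.99 and 4.06 CPM in the controls and 1.59, 2.80 and 1.14 in the Ybx1-KO libraries (log2 fold change -1.64, SE 0.88, adjusted p = 0.451 by edgeR). Both differences in mean CPM exceeded the SD within each group, but neither gene was called. The unadjusted p was 0.107 for Pcdhb6 and 0.0825 for Pcdhb20 by edgeR, so the adjustment over all genes was not the only limit. For Ybx1-KO 3 the receptor-gene rate gives 14.3 counts for the exon of Pcdhb6, which had 21. It gives 13.5 for the exon of Pcdhb20, which had 8. Like Pcdhb7, these genes encode isoforms that lack the constant cytoplasmic domain of the alpha and gamma proteins.

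By the mean over all 6 libraries, the best expressed beta members per unshared kilobase were Pcdhb17, Pcdhb16 and Pcdhb8, and none of them lay on one side of the controls in all Ybx1-KO libraries. By the control mean alone Pcdhb7, which lay wholly lower, was the second at 2.17 CPM per kilobase, between Pcdhb17 at 2.53 and Pcdhb16 at 1.78. Pcdhb17 had 12.9, 12.4 and 12.4 CPM in the controls and 16.3, 13.1 and 4.40 in the Ybx1-KO libraries. It was the leading beta member in controls 2 and 3 and in Ybx1-KO 1 and 2. Its share of the beta counts was 21.5% and 18.7% in the latter and 9.73% to 13.3% in the controls. Its log2 fold change was -0.15 (SE 0.51) over all libraries and 0.24 (SE 0.45) without Ybx1-KO 3, so the sign depended on that library. Pcdhb16 had 8.99 to 11.1 CPM in the controls and 5.90, 11.1 and 6.96 in the Ybx1-KO libraries. Pcdhb8 had 5.76 to 7.72 CPM in the controls and 11, 2.08 and 1.99 in the Ybx1-KO libraries, which put 1 library above and the other two below every control.

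The highest log2 fold changes of beta members were small or rested on Ybx1-KO 3. Pcdhb5 had 2.39 to 3.89 CPM in the controls and 3.18, 2.91 and 7.67 in the Ybx1-KO libraries (log2 fold change 0.60, SE 0.88, adjusted p = 0.756 by edgeR), so only Ybx1-KO 3 lay above the controls. Pcdhb10 (0.19, SE 1.17) ranged from 0.415 CPM in Ybx1-KO 2 to 5.44 in Ybx1-KO 1, wider than its controls at 1.03 to 3.93. Pcdhb22 was close to its control level (-0.04, SE 0.57), and its sign turned under scaling by total counts (0.24). Pcdhb1 had no count in 5 libraries and 20 in Ybx1-KO 3, where the receptor-gene rate gives 9.84 for its exon.

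Pcdhb4, named here after its values were seen, showed how far one library set a value. It had 100, 73 and 75 counts in the controls, 1 and 3 in Ybx1-KO 1 and 2, and 31 in Ybx1-KO 3. The log2 fold change was -1.33 (SE 1.25) over all libraries and -4.17 (SE 1.08, adjusted p = 0.256 by edgeR) without Ybx1-KO 3, and its adjusted p ran from 0.124 to 0.843 over the alternatives. The receptor-gene rate of Ybx1-KO 3 gives 14.1 counts for this exon.

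The gamma cluster was the most abundant in every library. Pcdhgc3 was its leading member in the controls and in Ybx1-KO 2, whereas Pcdhga10 led in Ybx1-KO 1 and Pcdhga9 in Ybx1-KO 3. Pcdhgc3 is the C-type isoform that binds Axin1 and promotes dendrite branching in cortical neurons. It had 69.3, 36.1 and 44.3 CPM in the controls and 11.6, 37.9 and 9.95 in the Ybx1-KO libraries. Ybx1-KO 1 and 3 were far below every control and Ybx1-KO 2 lay within the control range. Per unshared kilobase, Pcdhgc3 stood at 14.0 ± 5.75 CPM in the controls (SD, n = 3) and the next gamma member, Pcdhga11, at 5.05 ± 1.19. The annotated exons of Pcdhgc3 partly overlap an RNA on the opposite strand, BC037039.

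The log2 fold change of Pcdhgc3 was -1.33 (SE 0.49, unadjusted p = 0.0158, adjusted p = 0.432 by edgeR). It was -1.02 without Ybx1-KO 3 and -1.09 without Ybx1-KO 1. Without Ybx1-KO 2 it was -2.11 with adjusted p = 0.000839 by edgeR, and Pcdhgc3 was then the only member called among the 0.887% of all genes called lower. On the genes tested with all libraries the same omission gave -2.21 and adjusted p = 0.00807 by edgeR, among 0.638% called lower. The call thus turned on the 1 Ybx1-KO library in which the gene was at its control level, and over all alternatives the adjusted p ran from 0.000839 to 0.783.

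As a share of the gamma cluster, which does not depend on library scaling, Pcdhgc3 held 24.5%, 17.1% and 23.7% in the controls. It held 9.28% (95% Wilson interval 7.70% to 11.1%), 17.8% (16.2% to 19.5%) and 8.41% (6.71% to 10.5%) in Ybx1-KO 1, 2 and 3. The share in Ybx1-KO 2 was within the control range, and the other two lay below it. The other gamma C-types had values on both sides of the controls. Pcdhgc4, an isoform needed for the survival of many neurons, had 12.7, 7.86 and 10.3 CPM in the controls and 1.59, 13.7 and 11.4 in the Ybx1-KO libraries (log2 fold change -0.21, SE 0.64). Pcdhgc5 had 4.46, 2.06 and 1.93 CPM in the controls and 0.567, 2.39 and 6.82 in the Ybx1-KO libraries and was not tested.

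**Figure D3:**
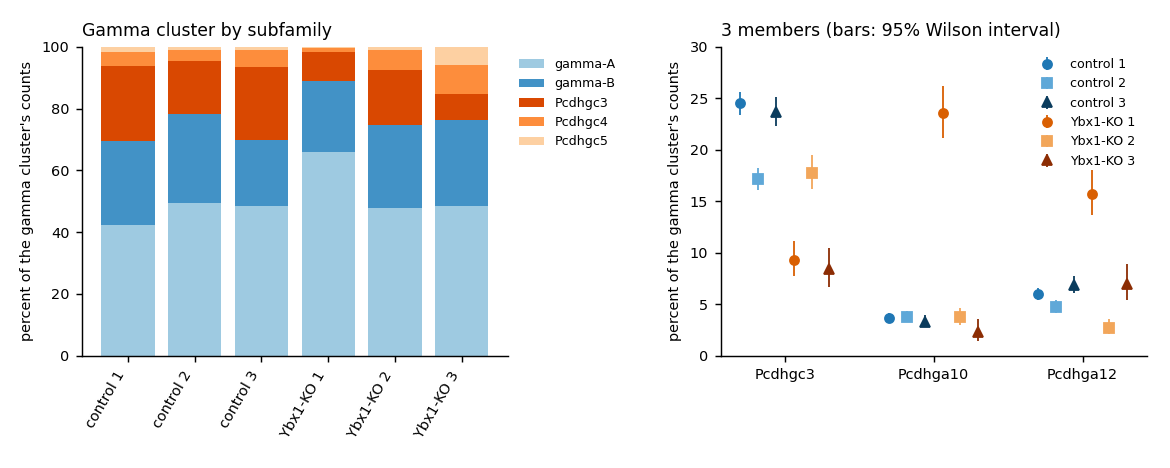
Left, the share of the gamma cluster's counts (percent, vertical axis from 0 to 100) held by the gamma-A, gamma-B and C-type members in each library. Right, the same share for Pcdhgc3, Pcdhga10 and Pcdhga12 with 95% Wilson intervals as bars, 1 symbol per library. Pcdhgc3 holds 17.1% to 24.5% in the controls and 9.28% and 8.41% in Ybx1-KO 1 and 3, and Pcdhga10 holds 23.6% in Ybx1-KO 1 alone.

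The 12 gamma-A and 7 gamma-B members, whose promoters are subject to random choice in neurons, summed to overlapping levels. The gamma-A sum was 119, 104 and 90.6 CPM in the controls and 82.1, 102 and 57.4 in the Ybx1-KO libraries. The gamma-B sum was 77, 60.1 and 39.9 CPM in the controls and 28.8, 57.1 and 32.7 in the Ybx1-KO libraries. Within the cluster, gamma-A held 42.2% to 49.6% of the counts in the controls and 65.9%, 47.9% and 48.6% in Ybx1-KO 1, 2 and 3. Ybx1-KO 1 was therefore the library with a different make-up.

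In Ybx1-KO 1 a few members held much of the gamma counts. Pcdhga10 had 10.3, 7.96 and 6.15 CPM in the controls and 29.4, 8.00 and 2.70 in the Ybx1-KO libraries. It held 259 of the 1099 gamma counts of Ybx1-KO 1, 23.6% (95% Wilson interval 21.2% to 26.2%), against 3.29% to 3.78% in the controls and 3.75% and 2.28% in Ybx1-KO 2 and 3. Pcdhga12 held 15.7% (13.7% to 18%) there, against 4.71% to 6.90% in the controls. In the same library Pcdhga3 had 2 counts, beside 169 to 359 in the controls, and Pcdhgb8 likewise had 2 beside 78 to 136. The log2 fold change of Pcdhga10 was 0.72 (SE 0.67, adjusted p = 0.615 by edgeR), the highest of the tested members, and -0.63 without Ybx1-KO 1. The first exon of Pcdhga10, the part it does not share with other members, lies wholly under an RNA of the opposite strand, Gm26672, which had 27.7 CPM in Ybx1-KO 1 and 22.7 to 32.1 in the controls.

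Pcdhga3 and Pcdhga8 were the tested gamma members without overlap. Pcdhga3 had 10.2, 16.8 and 8.59 CPM in the controls and 0.227, 8.52 and 3.69 in the Ybx1-KO libraries (log2 fold change -1.51, SE 0.81, adjusted p = 0.450 by edgeR). Ybx1-KO 2 lay just under the lowest control. Pcdhga8 had 8.97, 6.60 and 4.37 CPM in the controls and 4.20, 3.12 and 3.55 in the Ybx1-KO libraries (log2 fold change -0.88, SE 0.71, adjusted p = 0.563 by edgeR). Of the members named for their level or their fold change, Pcdhgb6 (-0.96, SE 0.64) and Pcdhga5 (-0.47, SE 0.57) lay lower with overlapping groups, and Pcdhga2 (0.23, SE 0.72) had 13.4 CPM in Ybx1-KO 2 and 1.70 in Ybx1-KO 1 around controls of 5.23 to 6.20. Pcdhga9 (0.02, SE 0.59) had 14.4 CPM in Ybx1-KO 3 and was at -0.62 without that library.

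In the fit across all genes, 32 of the 57 members passed the filter (1 alpha, 13 beta and 18 gamma). Of these, 18 passed in both groups, 12 through the control mean only and 2 through the Ybx1-KO mean only, so a lower level in Ybx1-KO is partly built into the tested set. Just inside the filter was Pcdhb4, with at most 1.02 FPKM in a group, and just outside it Pcdhgb8, with 0.996. None of the 32 was called at adjusted p below 0.05 and a fold above 1.5 by edgeR, and 0% of the 21324 genes tested was called in either direction; the smallest adjusted p over all genes was 0.167. At an unadjusted p below 0.05, 2 members were lower (Pcdhb7 and Pcdhgc3) and 0 higher, beside 4.26% and 6.96% of all genes. DESeq2 called 0 members, beside 0.45% of all genes called lower.

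Of the 32 tested members, 27 had a log2 fold change below 0 (84.4%), as did 38.7% of all genes tested. Their median was -0.50, and that of all genes was 0.31. The 5 members above 0 were Pcdhb5, Pcdhb10, Pcdhga2, Pcdhga9 and Pcdhga10. The groups did not overlap for 6 members, all of them lower (18.8%), beside 8.16% of all genes lower and 4.99% higher. All 6 (Pcdhac2, Pcdhb6, Pcdhb7, Pcdhb20, Pcdhga3 and Pcdhga8) were among the 12 that passed the filter through the control mean only, so nothing is read from this share. With a filter that does not depend on the group, a mean above 1 CPM over the 6 libraries, 52 members were tested. Of them, 42 had a log2 fold change below 0, their median was -0.49 beside 0.21 for all genes, and 9 lay wholly lower and 0 wholly higher, beside 7.83% and 4.95% of all genes.

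With no filter all 57 members were tested, and 0 were called beside 0.264% of all genes higher and 0.187% lower. In that fit 13 members lay wholly lower and 0 wholly higher, beside 5.8% and 2.1% of all genes. For the same reasons nothing is read from these shares. Scaling mattered for the level of every gene. The median over all genes moved from 0.31 with TMM to 0.53 with total counts alone, and the median of the 32 members moved from -0.50 to -0.40. The members' median stayed below that of all genes by 0.81 with TMM, 0.84 with DESeq2 size factors and 0.94 with total counts.

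**Figure D4:**
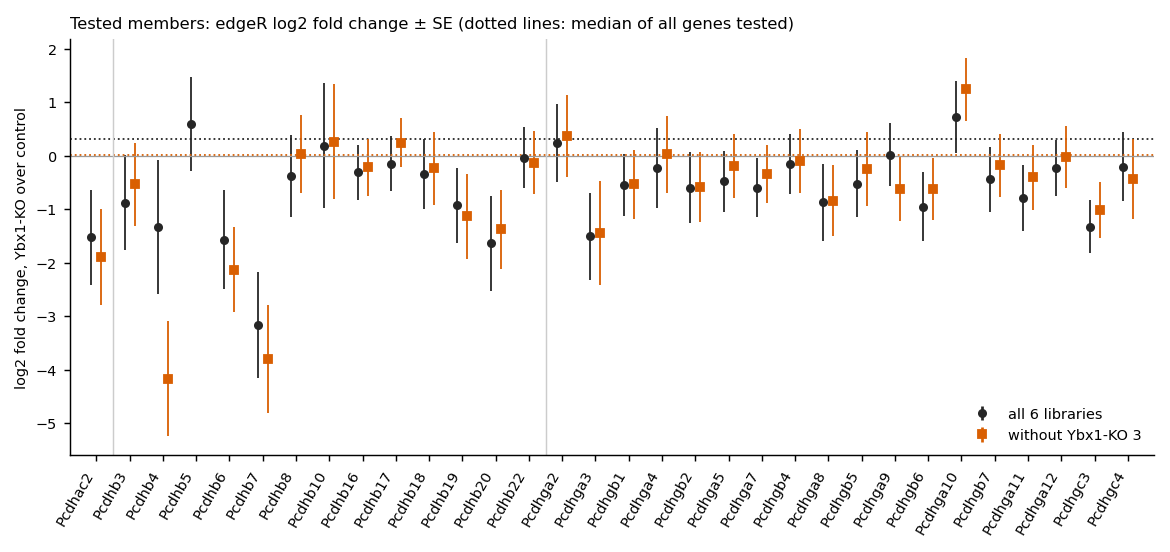
The edgeR log2 fold change (Ybx1-KO over control, vertical axis) with its standard error for each tested member in chromosomal order, over all 6 libraries (black) and without Ybx1-KO 3 (orange); dotted lines give the median of all genes tested in each fit. Most members lie below 0, Pcdhb7 and, without Ybx1-KO 3, Pcdhb4 lie lowest, and Pcdhga10 lies highest in both fits.

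Without Ybx1-KO 3, 31 members were tested and the median of all genes was 0.01. The members' median was then -0.41, and 25 of the 31 had a log2 fold change below 0 (80.6%), as did 49.3% of all genes. The difference between the members' median and that of all genes thus shrank from 0.81 to 0.42. On the genes tested with all libraries that still had counts it shrank further, to 0.25, with medians of -0.41 for the 32 members and -0.16 for all genes. The fit on 31 members left 9 wholly lower and 1 wholly higher (Pcdhb17), beside 16.5% and 13.8% of all genes. It called 0 members and 0% of the 15182 genes. Both fits kept genes by the mean of either group, so a lower level in Ybx1-KO is again partly built into the tested members. Nothing is read from their shares below 0 or without overlap.

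The members spread more widely around their control levels in the Ybx1-KO libraries than in the controls, except the alpha members in Ybx1-KO 2. Whether they shifted by a common amount was not tested. Each member was set against the control mean on a log2 scale (TMM-scaled CPM plus 0.5), and a control against the mean of the other two controls. Across the 22 gamma members the SD of this ratio was 0.35, 0.40 and 0.37 in the controls and 1.21, 0.68 and 0.84 in Ybx1-KO 1, 2 and 3. Across the 22 beta members it was 0.39, 0.43 and 0.34 in the controls and 1.23, 1.12 and 1.11 in the Ybx1-KO libraries. Across the 13 alpha members it was 0.48, 0.69 and 0.71 in the controls and 1.28, 0.59 and 0.91 in the Ybx1-KO libraries, so that Ybx1-KO 2 was tighter than controls 2 and 3. All genes tested had SDs of 0.57 to 0.66 in the controls and 1.09, 0.73 and 1.43 in the Ybx1-KO libraries. The beta and gamma members were thus tighter than all genes in every control, the beta members wider in Ybx1-KO 1 and 2, and both tighter in Ybx1-KO 3. The Ybx1-KO libraries held fewer counts per member. The parts of counting error and of the background of Ybx1-KO 3 in this spread were not tested.

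**Figure D5:**
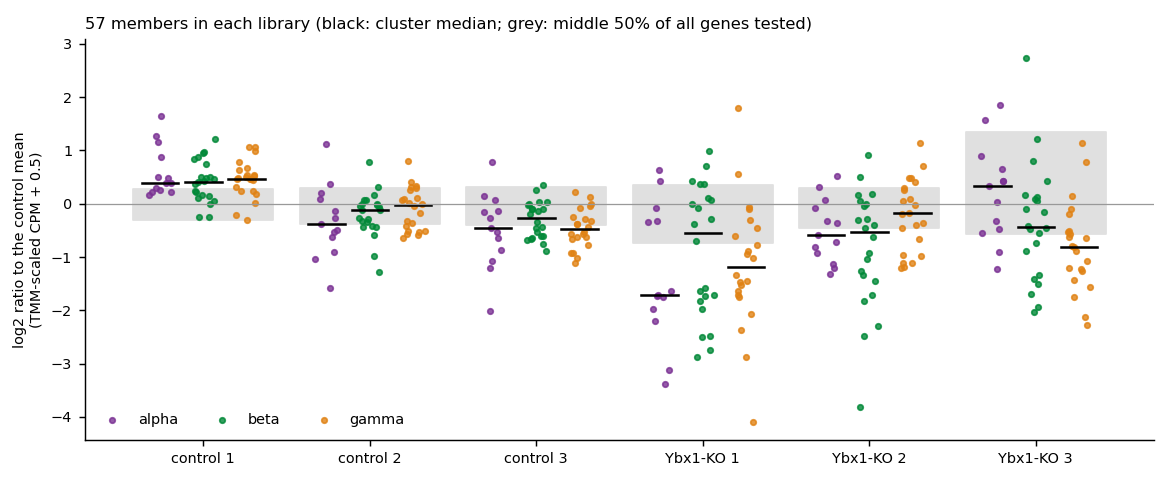
The log2 ratio of each of the 57 members to the control mean (vertical axis, TMM-scaled CPM plus 0.5) in each library (horizontal axis), coloured by cluster; a control is set against the other two controls. Black bars are cluster medians and grey bands the middle 50% of all genes tested. Beta and gamma members lie in a narrower band in the controls than in the Ybx1-KO libraries, and alpha members do not in Ybx1-KO 2.

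The order of the beta and of the gamma members was also less alike between Ybx1-KO libraries than between controls, and that of the alpha members was not. Over the 22 beta members, ranked by CPM per unshared kilobase, Spearman's rho was 0.80 to 0.90 between pairs of controls and 0.08 to 0.35 between pairs of Ybx1-KO libraries. Over the 22 gamma members it was 0.74 to 0.84 between controls and 0.13 to 0.39 between Ybx1-KO libraries. Over the 13 alpha members it was 0.30 to 0.80 between controls and 0.45 to 0.72 between Ybx1-KO libraries. Ybx1-KO 2 kept the gamma order of the controls (rho 0.77, 0.79 and 0.80), and Ybx1-KO 1 (0.19 to 0.44) and Ybx1-KO 3 (0.14 to 0.32) did not. In the beta cluster Ybx1-KO 2 reached 0.37 to 0.60 with the controls. These coefficients are descriptions over members of a library, which share its depth, and no test was made of them. The total behind a beta order was 1845 to 2755 counts in the controls and 545 to 673 in the Ybx1-KO libraries. In Ybx1-KO 3 the receptor-gene rate equalled 73.2% of the alpha, 64.0% of the beta and 30.5% of the gamma counts. Between Ybx1-KO 1 and 2 rho was 0.72 for alpha, 0.35 for beta and 0.13 for gamma. The alpha order of Ybx1-KO 1 held 8 members tied at 0. The parts of background, depth and ties in these orders were not tested.

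Genes that act on or with the family were given by lists chosen with earlier results known. Of the 16 regulators of promoter choice and silencing, 0 were called, 12 had a log2 fold change below 0, 4 above, and the median was -0.46, beside 38.7% below 0 and a median of 0.31 for all genes. The cohesin subunit genes Smc3 and Stag1, named after their values were seen, were the 2 that lay wholly lower, as did 8.16% of all genes. Ctcf, the factor that binds most members' promoters, had 74.2 to 106 CPM in the controls and 83.7, 69.8 and 52.3 in the Ybx1-KO libraries (log2 fold change -0.45, SE 0.38). Rad21, a cohesin subunit, had 133 to 189 CPM in the controls and 107, 146 and 79.6 in the Ybx1-KO libraries (-0.50, SE 0.41). Smchd1, a repressor of the arrays, had 67.1 to 141 CPM in the controls and 80.6 to 93.2 in the Ybx1-KO libraries (-0.26, SE 0.40). Dnmt3b, which methylates member promoters in early development, had 2.95 to 10.1 CPM in the controls and 4.20 to 10.9 in the Ybx1-KO libraries (0.58, SE 0.66). The groups overlapped for each of these 4 genes.

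Of 12 cytoplasmic partners, among them the kinase genes Fyn and Ptk2 and the WAVE-complex gene Nckap1, 11 were tested and 0 called, with a median log2 fold change of -0.34 beside 0.31. Of 10 nonclustered protocadherins, which lie outside the 3 arrays and have no shared exons, 8 were tested and 0 called. Their median was -0.77 beside 0.31. Named here after their values were seen, 3 lay wholly lower (Pcdh7, Pcdh10 and Pcdh19) and 1 wholly higher (Pcdh8), beside 8.16% and 4.99% of all genes. Pcdh8 had 12.2 to 16.2 CPM in the controls and 56.5, 40.8 and 19.3 in the Ybx1-KO libraries (log2 fold change 1.45, SE 0.43, adjusted p = 0.359 by edgeR). Pcdh19 had 43.9 to 70.8 CPM in the controls and 24, 35.8 and 14.2 in the Ybx1-KO libraries (-1.10, SE 0.42, adjusted p = 0.433 by edgeR).

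Genes next to the arrays had a median near that of all genes. Of 15 flanking genes 14 were tested and 0 called, with 9 above 0, 5 below and a median of 0.35 beside 0.31. Taf7, a general transcription factor gene between the beta and gamma arrays, had 28.9, 20.5 and 20.4 CPM in the controls and 12.4, 14.5 and 8.24 in the Ybx1-KO libraries. The groups did not overlap (log2 fold change -0.99, SE 0.42, adjusted p = 0.444 by edgeR). Slc25a2, a mitochondrial carrier gene beside it, had at most 1.70 CPM in any library and was not tested.

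Markers of cell types were read in the same libraries. Progenitor markers summed to 1889 to 2026 CPM in the controls and 1500 to 2445 in the Ybx1-KO libraries, and no marker of the 12 was at 0 throughout a group. Their log2 fold change was above 0 for 8 and below 0 for 4, with a median of 0.22. Neuron markers, which label the cells in which promoter choice is best known, summed to 3836 to 6831 CPM in the controls and 2257 to 5531 in the Ybx1-KO libraries. Of them 11 of 15 were below 0, with a median of -0.25. Over all genes 38.7% were below 0 and the median was 0.31. Mesenchyme markers summed to 888, 138 and 222 CPM in the controls and 114, 134 and 79.9 in the Ybx1-KO libraries, and all 7 that were tested had a log2 fold change below 0. Control 1, the library with the highest sum of every protocadherin cluster, also had the highest mesenchyme, erythroid, endothelial and microglia sums. Erythroid, endothelial, microglia and neural crest markers summed to 480 to 1170, 20.4 to 48.7, 9.64 to 39.9 and 30.7 to 50.7 CPM in the controls, and to 164 to 953, 12.8 to 43.2, 3.40 to 25.4 and 55.3 to 165 in the Ybx1-KO libraries. No list had a marker at 0 throughout a group. The part of cell make-up in the members' levels was not tested. Without control 1 the median of the members was -0.33 and their summed level differed by -0.39 on the log2 scale.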

How the data were processed

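Total RNA from sorted cells was made into stranded libraries and sequenced as read pairs, per the labels. The authors deposited raw counts per gene symbol, 1 table per library, made with HTSeq 0.6.1p1 on a GENCODE annotation. The submitters' processing notes also name CASAVA, mm10 and GRCm38.p5. The aligner and strand setting are not given in the sources used here. Genes wholly under another gene on the same strand had counts in 5.83% of 618 cases, and those under one on the other strand only in 85.3% of 415. The 5 tally lines were left out, and read pairs assigned to several genes were 0.278% to 3.87% of the total.

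Exon lengths came from GENCODE M21 (GRCm38), which matched 47624 of the 51733 symbols by name and 357 by an older name. Alpha and gamma members share constant exons, whose reads a gene counter cannot give to 1 member, so levels between members are per kilobase of exon unshared on the strand. Several readthrough annotations cover members' exons and held 0 counts. Counts were fitted across all genes with mean FPKM above 1 in either group by edgeR 4.0.16 (TMM, quasi-likelihood F test, Benjamini-Hochberg), called at adjusted p below 0.05 and fold above 1.5. Standard errors are the log2 fold change over the root of F. Alternatives were limma-voom 3.58.1, as in the study's methods, DESeq2 1.42.0, other scalings and filters, subtraction of a rate per kilobase over 1725 receptor genes, and omission of each library. The edgeR fit alone was tested on simulated counts. Its recovery of known changes was required only at a spread between libraries below that of these data, a common coefficient of variation of 0.80. Intervals for shares are 95% Wilson intervals.

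The members, lists and tests were chosen with earlier results of these data known. Named members were all C-types and, per cluster, the 3 with the highest and the 3 with the lowest log2 fold change, the 3 best expressed per kilobase and up to 3 without overlap, with Ybx1, Ctcf, Rad21, Smchd1, Dnmt3b, Taf7 and Slc25a2 outside the family. Which library ran on which of the 2 sequencer models, and what the numbers in the library titles stand for, are not given, so neither batch could be fitted.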

Additional observations from a re-analysis of the deposited data

Results flagged for a closer look

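Receptor genes of the nose and tongue lie outside the comparisons above and showed a signal above the controls in 1 library. They held 4554 CPM in Ybx1-KO 3, against 28.6 to 95.9 CPM in the controls and 22.5 and 25.3 in the other Ybx1-KO libraries. Of the 1729 receptor genes, 81.9% had a count in Ybx1-KO 3 and 2.43% to 29.0% in the others. In that library 13 of the 57 clustered protocadherins were at or below the count that the same rate per kilobase gives for their exons (5 alpha, 7 beta and 1 gamma). Groups of 3 libraries are too small for the test of a single distant library that was set for groups of 4 or more.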

How the results depend on the processing

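No member was called higher under any alternative run. Over all genes, 0 higher and 0 lower calls became 113 and 80 without a filter, 118 and 96 with DESeq2, and, on those of the 21324 genes tested with all libraries that still had counts, 28 and 22 without Ybx1-KO 3 and 282 and 136 without Ybx1-KO 2. With the filter applied anew, leaving out 1 library gave 0 to 730 and 0 to 216, of which 0 and 0 without Ybx1-KO 3. Members called lower ranged from 0 to 1, members without overlap from 0 to 1 higher and 6 to 16 lower. The latter numbered 13 without a filter and 17 without Ybx1-KO 2 on the genes of the fit on all libraries, and 1 was higher after subtraction without Ybx1-KO 3. Over all genes, 8.16% lay wholly lower with all 6 libraries, 5.8% without a filter and 16.5% without Ybx1-KO 3. The share over all genes is not given for the other omissions, so nothing about the members is read from 16 or 17. The beta median was -0.82 after subtraction, -0.81 with limma-voom and -0.63 without Ybx1-KO 2 on those genes. The cause was not tested. Signs turned as follows: with limma-voom Pcdhb10 (-0.25), Pcdhga2 (-0.17) and Pcdhga9 (-0.25); Pcdhb22 with DESeq2 size factors (0.064), total counts (0.24), CPM above 1 in 3 libraries (0.067) and DESeq2 (0.063); and Pcdhga9 without a filter (-0.20) and with mean CPM above 1 (-0.0056). Over single omissions the ranges were -0.18 to 0.78 for Pcdhb10, -0.56 to 0.24 for Pcdhb17, -0.21 to 0.28 for Pcdhb22, -1.76 to 0.047 for Pcdhb8, -0.63 to 1.24 for Pcdhga10, -0.56 to 0.65 for Pcdhga2, -0.62 to 0.50 for Pcdhga9 and -0.50 to 0.22 for Pcdhgc4. The fits without Ybx1-KO 3 that were added after seeing the data gave 0.21 and 0.25 for Pcdhb17, -0.016 for Pcdhb5, 0.031 for Pcdhb8 and -0.66 and -0.62 for Pcdhga9, and Pcdhb22 was 0.14 and Pcdhga2 -0.72 without Ybx1-KO 2 on the genes of the fit on all libraries. No paired analysis was possible because the titles give no replicate numbers that 2 or more libraries of each group share. Depth limits the alpha members most, with 59 to 181 counts in all in a Ybx1-KO library.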

Other observations

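The arrays also hold RNAs on the opposite strand and RNAs that code for no protein, which are named here after their values were seen. BC037039, an antisense RNA beside Pcdhgc3, had 42.9, 21.2 and 30.1 CPM in the controls and 12.2, 19.5 and 9.38 in the Ybx1-KO libraries. Every Ybx1-KO value lay below the controls (log2 fold change -1.19, SE 0.43, adjusted p = 0.426 by edgeR). Gm10545, an antisense RNA in the alpha array, had 115, 46 and 43 counts in the controls and 1, 17 and 6 in the Ybx1-KO libraries, and it was not tested. Gm10544, also in the alpha array, had 9.60 to 11.8 CPM in the controls and 7.82 to 9.24 in the Ybx1-KO libraries, without overlap and with a small difference (-0.30, SE 0.49). Gm26672, which lies over the first exon of Pcdhga10, had 22.7 to 32.1 CPM in the controls and 27.7, 29.0 and 15.6 in the Ybx1-KO libraries, and the groups overlapped.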
